A study of Mus musculus with 3 samples.

Results

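The 48 genes described here encode 42 nuclear receptors and 6 of the coregulators that bind them. They were taken as a fixed list of names from the 55487 genes of the table, with the corticosteroid receptors and the Rev-erb receptors left out, and all 48 were found by symbol. RNA came from mpkDCT4a cells, an immortalised mouse kidney line named for the distal convoluted tubule, where the cotransporter blocked by thiazide diuretics reabsorbs salt. The 3 libraries form 1 group with no stated treatment or genetic change, so levels can be described but no condition can be compared. The medium held ligands of 2 kinds of nuclear receptor, triiodothyronine at 1 nM for the thyroid hormone receptors and dexamethasone at 50 nM for the glucocorticoid receptor. It also held insulin at 5 µg/ml, epidermal growth factor at 10 ng/ml, transferrin, selenate, glutamine, glucose and 2% fetal calf serum. Neither a retinoid nor vitamin D is named among the additions, and what the serum itself carried is not given.

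Nuclear receptors are transcription factors that bind DNA through a pair of zinc fingers, and many of them are switched by a small lipid-soluble ligand. Receptors for thyroid hormone, retinoic acid, vitamin D, oxysterols and fatty acids mostly act as dimers with a retinoid X receptor, whereas the oestrogen-related receptors and several orphans act as monomers or homodimers. Without ligand many receptors hold corepressors such as Ncor1, and with ligand they recruit coactivators such as the Ncoa family. In the kidney, Hnf4a is known for the proximal tubule programme, and vitamin D acts on calcium transport in the distal tubule.

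Depth was low, with 436983 counts in replicate 1, 482418 in replicate 2 and 443192 in replicate 3, and the 48 genes together took 2226 counts (0.163%). Detection was set at a mean of 1 CPM (the count scaled to library size, per 1e6 counts) or more, which takes 2 counts over the 3 libraries. Levels are compared between genes on the TPM scale of transcript abundance, that is, counts divided by the exon length and scaled to the same sum in each library, as mean ± SD over the 3 libraries. Of the 12 markers of the distal convoluted tubule 5 were detected (66.3 to 94.1 CPM summed per library). The highest were Wnk4 (61 counts), Cnnm2 (27) and Trpm6 (12). The other 7 had 0 counts, the defining gene Slc12a3, Pvalb and Calb1 among them. Of the 8 proximal tubule markers 4 were detected (261 to 315 CPM summed), with the highest in Lrp2 (293 counts), Aqp1 (83) and Slc6a19 (12). Slc34a1, Slc5a2, Slc5a12 and Slc22a6 were at 0. None of the 8 collecting duct markers was detected (0 to 2.31 CPM summed). Of the 10 fibroblast, endothelial and leukocyte markers Col1a1 and Pdgfrb were detected (4.48 to 14.5 CPM summed). Whether each replicate was a culture of its own is not stated, so any p-value covers only the spread among these libraries, which may be technical. In a pool of cells, a low level in every cell and a high level in few cells cannot be told apart.

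Of the 48 genes 29 were detected (60.4%), against 50.6% of protein-coding genes. At least 10 CPM was reached by 19 of the 48 (39.6%), against 40.8% of protein-coding genes, so that the shares lay close at this level. The median over all 48 was 2.02 ± 0.460 TPM, against 1.51 ± 0.0642 TPM over all protein-coding genes. Among detected genes alone the order was the other way, with a median of 16.4 TPM for the 29 and 31.4 TPM for protein-coding genes. Of 80 genes of the Fox, Sox and Klf families of transcription factors, 39 were detected and 29 reached 10 CPM. All 6 coregulators and 23 of the 42 receptors were detected. Another 3 receptors had 1 count each and 16 had none. The level that 0 counts still allow depends on gene length, and 3 counts over all libraries correspond to between 0.594 TPM for Esr1, which has long exons, and 7.16 TPM for the short gene Nr0b2.

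**Figure D1:**
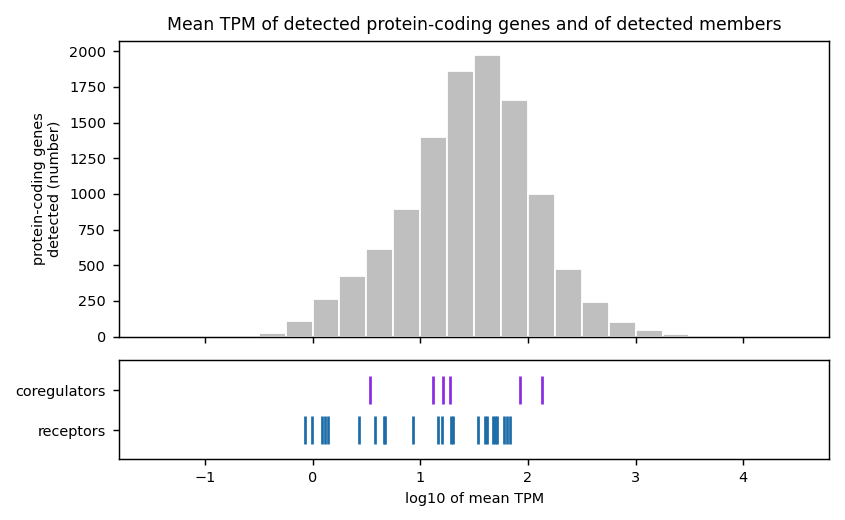
The upper panel counts detected protein-coding genes by the log10 of their mean TPM over 3 libraries, and the ticks below mark the 6 coregulators and the 23 detected receptors on the same axis. The coregulator Ncor1 lies furthest to the right at 136 TPM, and no receptor lies above the 68.7 TPM of Esrrb.

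The highest of the 48 was Ncor1 (ENSMUSG00000018501, GRCm38 chromosome 11, 62316426 to 62458541), the scaffold of a corepressor complex that carries the histone deacetylase Hdac3. Ncor1 had 189, 240 and 216 counts in replicates 1, 2 and 3, or 123, 144 and 140 TPM, with a mean of 136 ± 10.9 TPM. It led in every library and lay at percentile 94.1 of all protein-coding genes by TPM.

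The p160 coactivators, which bind ligand-loaded receptors and bring in histone acetyltransferases, were all detected and were led by Ncoa3 in all 3 libraries. Ncoa3 (chromosome 2, 165992636 to 166073242) had 69, 87 and 93 counts, or 73.1, 84.6 and 98.0 TPM, with a mean of 85.2 ± 12.5 TPM. Ncoa2 had 28, 44 and 38 counts (18.9 ± 3.49 TPM) and Ncoa1 had 15, 11 and 15 counts (13.01 ± 2.74 TPM). The lowest library of Ncoa3 was above the highest of either relative. Ncoa3 had 4.48 times the counts of Ncoa2 per length (95% counting interval 3.57 to 5.67) and 6.60 times those of Ncoa1 (4.73 to 9.42). By the length of the longest transcript its ratio to Ncoa2 was 2.46. Ncoa2 exceeded Ncoa1 by a ratio of 1.47 (1.02 to 2.16), and by 2.41 by longest transcript, but the interval included 1 when replicate 2 (ratio 1.21) or replicate 3 (ratio 1.52) was left out.

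The PGC-1 coactivators, which raise the activity of oestrogen-related receptors and PPARs on mitochondrial genes, were unequal. Ppargc1a had 13, 14 and 13 counts, or 16.5, 16.3 and 16.4 TPM (16.4 ± 0.0947 TPM). Ppargc1b had 1, 1 and 3 counts (3.43 ± 2.45 TPM, and 2.01 TPM without replicate 3). Each library of Ppargc1a lay above each library of Ppargc1b, and the ratio per length was 4.84 (1.91 to 15.7), or 8.17 without replicate 3.

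**Figure D2:**
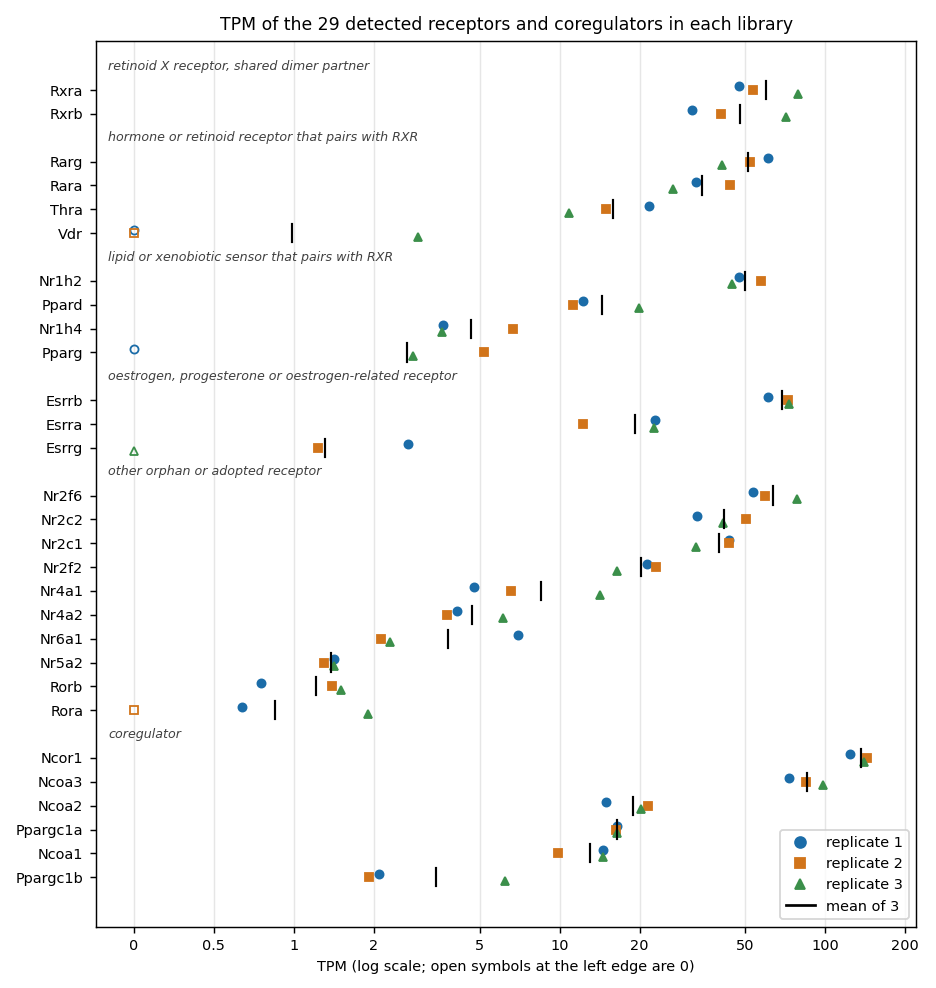
TPM on a log axis for the 29 detected receptors and coregulators, grouped by role, with 1 symbol for each of the 3 libraries and a black bar at the mean; open symbols at the left edge are libraries with 0 counts. The libraries of Ncor1 lie close together (123 to 144 TPM) and those of Rxrb further apart (31.6 to 71.2 TPM), while Vdr has counts in 1 library alone.

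Partners of these coregulators were detected almost throughout, from lists that hold none of the 48 genes. Of 11 genes of the corepressor complexes all 11 were detected, with a median of 75.4 TPM. Of protein-coding genes 50.6% were detected, with a median of 31.4 TPM among the detected and 1.51 TPM over all. Among the highest by CPM were the complex subunit Tbl1x at 149 ± 22.8 TPM and its relative Tbl1xr1 at 75.4 ± 6.23 TPM. Of 14 coactivator partners 13 were detected, with a median of 61.4 TPM. The highest by CPM were the histone acetyltransferase Crebbp (108 ± 8.68 TPM), the Mediator subunit Med1 (162 ± 5.53 TPM) and the acetyltransferase Ep300 (60.0 ± 3.93 TPM). Perm1, a muscle partner of PGC-1, had 0 counts.

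Of the retinoid X receptors, the shared dimer partners of many of the other receptors, Rxra and Rxrb were detected and Rxrg had no count. Rxra (chromosome 2, 27676440 to 27762957) had 31, 38 and 52 counts, or 47.5, 53.4 and 79.2 TPM, with a mean of 60.0 ± 16.9 TPM. Rxrb (chromosome 17, 34031812 to 34038399) had 15, 21 and 34 counts, or 31.6, 40.6 and 71.2 TPM, with a mean of 47.8 ± 20.8 TPM. Replicate 3 was the highest library for both genes, and Rxrg had 0 counts in all 3. Rxra and Rxrb could not be told apart by level, since the ratio per length of 1.26 had an interval of 0.929 to 1.71 and was 0.926 by longest transcript. By the counting interval Rxrb was at least 10.7-fold higher than Rxrg per length, and 13.5-fold when computed against 3 counts over all libraries.

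Retinoic acid receptors were present as Rarg and Rara, with Rarb at 1 count. Rarg had 31, 29 and 21 counts, or 60.9, 52.3 and 41.0 TPM (51.4 ± 9.96 TPM). Rara had 17, 25 and 14 counts, or 32.6, 44.0 and 26.7 TPM (34.4 ± 8.79 TPM). Rara was the lower of the pair in all 3 libraries, although its highest library lay above the lowest of Rarg. The ratio of Rara to Rarg per length was 0.675 (0.471 to 0.961), and the interval included 1 without replicate 1 (0.761) or replicate 3 (0.683). Rara had 67.5 times the counts of Rarb per length, with a wide interval of 11.6 to 2715 that comes from the single count of Rarb. Of the exon bases of Rarb 38.4% lie opposite other genes, mainly Top2b, which had 443 counts.

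Rarb is itself a textbook target of retinoic acid receptors through a response element in its promoter, a direct repeat of a hexamer with 5 bases between, and Cyp26a1, which encodes the hydroxylase that clears retinoic acid, carries another. A pair of GTTCA in the same direction with 6 bases between was searched for on both strands of the RefSeq promoter windows, which run from 250 bases before to 50 bases after a gene's start (GRCm38.p6). It occurred in 14 of 20145 windows of protein-coding genes (0.0695%) and in 1 of the 64 windows of the 48 genes, that of Rarb, at positions -52 to -37 from the start. Among the genes of the lists it occurred in Cyp26a1, on the opposite strand at -32 to -17, and in the corepressor gene Lcorl, at 20 to 35 after the start. The windows of Rarb (chr14:16575427-16575726, minus strand) and Cyp26a1 (chr19:37697558-37697857, plus strand) are shown in the direction of their genes because they hold the match beside 1 and 10 counts, with the matched bases in capitals. The pattern has the form of the elements already known for Rarb and Cyp26a1, so matches there could be foreseen. The shares therefore do not measure an enrichment. A match describes the letters only.
Rarb: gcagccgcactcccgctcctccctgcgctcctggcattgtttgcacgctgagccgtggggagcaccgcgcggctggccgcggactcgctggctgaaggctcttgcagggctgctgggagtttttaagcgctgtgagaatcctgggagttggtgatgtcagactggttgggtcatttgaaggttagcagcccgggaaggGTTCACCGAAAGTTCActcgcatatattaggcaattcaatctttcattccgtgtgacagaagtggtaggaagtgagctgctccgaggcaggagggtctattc
Cyp26a1: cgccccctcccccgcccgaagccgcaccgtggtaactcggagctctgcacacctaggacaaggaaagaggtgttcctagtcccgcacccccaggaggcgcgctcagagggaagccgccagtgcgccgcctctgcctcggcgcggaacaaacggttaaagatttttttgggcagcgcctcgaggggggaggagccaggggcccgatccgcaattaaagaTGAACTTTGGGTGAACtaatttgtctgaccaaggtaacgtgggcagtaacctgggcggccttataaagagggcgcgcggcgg

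Of 10 retinoic acid receptor target genes, a list that includes Rarb, 5 were detected, with a median of 2.29 TPM. Of all protein-coding genes 50.6% were detected, a share that also serves for the lists below. The highest by CPM were the transglutaminase gene Tgm2 (153 ± 5.96 TPM), the retinol receptor gene Stra6 (19.8 ± 5.34 TPM) and the retinal reductase gene Dhrs3 (10.1 ± 7.10 TPM). Cyp26a1 had 5, 2 and 3 counts (13.8 ± 6.76 TPM), while Cyp26b1, Crabp2 and Rarres1 had none. Of 16 genes of retinoid uptake and metabolism 6 were detected (median 0.302 TPM). Highest by CPM were the reductase gene Rdh11 (117 ± 13.7 TPM), Stra6 and the retinol dehydrogenase gene Rdh10 (11, 12 and 11 counts, 22.1 ± 0.0810 TPM). Genes without counts included the retinol carrier Rbp4, the retinoic acid binding proteins Crabp1 and Crabp2, and the retinal dehydrogenase Aldh1a1. Its relative Aldh1a2, which also makes retinoic acid, had 5, 5 and 11 counts (25.3 ± 13.1 TPM), with replicate 3 the highest.

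Of the thyroid hormone receptors only Thra had counts, in cells that were given triiodothyronine. Thra had 12, 9 and 6 counts, or 21.8, 15.0 and 10.8 TPM, with a mean of 15.8 ± 5.52 TPM. Thrb had 0 counts, and by the counting interval Thra was at least 10.96-fold higher per length, and 14.4-fold when computed against 3 counts. Of the exon bases of Thra 5.70% lie opposite exons of Nr1d1, which had 7 counts in all. Of 9 genes of thyroid hormone transport and deiodination 2 were detected, the amino acid carrier Slc7a5 (338 ± 28.5 TPM) and the carrier Slc16a10 (51.5 ± 8.62 TPM). The transporters Slc7a8 and Slco1c1 and the deiodinase Dio1 were among the 7 without counts. Of 8 thyroid hormone target genes, a list that includes Thrb, 5 were detected (median 16.2 TPM), with the highest CPM in the carnitine palmitoyltransferase Cpt1a (131 ± 8.55 TPM), the malic enzyme Me1 (110 ± 16.7 TPM) and the transcription factor Klf9 (61.8 ± 3.44 TPM). Klf9 also responds to glucocorticoids, and Thrsp and Dio1 had 0 counts.

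The vitamin D receptor was near the limit of detection. Vdr had 0, 0 and 2 counts, so its call of detected rests on replicate 3 alone, and the level without that library is 0. Of 8 vitamin D target genes 7 had no count, among them Cyp24a1, the enzyme that breaks vitamin D down, the calcium channels Trpv5 and Trpv6, and the calcium-binding protein S100g. The remaining gene was Spp1, which encodes osteopontin and has many other inducers, at 647 ± 70.9 TPM. Of 7 genes of vitamin D uptake and metabolism Lrp2 (47.3 ± 3.70 TPM), which encodes megalin, and Cubn (1.26 ± 0.246 TPM) were detected, and the 5 at 0 included Cyp27b1, Cyp24a1, Cyp2r1 and Cyp27a1.

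Among the sensors of lipids, 1 paralog of each family stood out. Nr1h2, the broadly expressed liver X receptor that responds to oxysterols, had 19, 25 and 18 counts, or 47.4, 57.2 and 44.6 TPM (49.8 ± 6.62 TPM). Its paralog Nr1h3 had 0 counts, and by the counting interval Nr1h2 was at least 12.2-fold higher per length, and 15.5-fold when computed against 3 counts. Ppard, the most widely expressed of the fatty acid sensing PPARs, had 11, 11 and 18 counts, or 12.2, 11.2 and 19.9 TPM (14.5 ± 4.75 TPM). Pparg, known for fat cells, had 0, 2 and 1 counts and Ppara, known for fatty acid oxidation, had 0, 0 and 1. Every library of Ppard lay above every library of either relative. The ratio of Ppard to Ppara was 20.4 (3.46 to 826), or 36.6 by longest transcript, and that to Pparg was 5.24 (1.67 to 26.5), or 11.4 without replicate 2. The bile acid receptor Nr1h4 had 1, 2 and 1 counts (4.64 ± 1.76 TPM), and the ratio of Nr1h3 to it, at most 0.687 when computed against 3 counts, was not resolved because the interval reached 1.39. The xenobiotic receptors Nr1i2 and Nr1i3 had 0 counts, but 74.9% of the exon bases of Nr1i3 lie opposite exons of Tomm40l, which had 32 counts.

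Targets of these sensors are given as detected genes of short lists, beside 50.6% of all protein-coding genes. Whether a list differs from that share was not tested. Of 13 liver X receptor target genes 8 were detected (median 10.0 TPM), with the highest CPM in the lipid synthesis genes Scd2 (2138 ± 97.9 TPM), Fasn (383 ± 27.0 TPM) and Scd1 (592 ± 10.8 TPM), which sterol and insulin signalling also drive. The cholesterol exporters Abcg1, Abcg5 and Abcg8 and the lipoprotein gene Apoe had 0 counts, whereas the exporter Abca1 had 11, 7 and 8 counts (6.83 ± 1.88 TPM). Of 7 genes around oxysterol synthesis 2 were detected, among them the sulphotransferase gene Sult2b1 (13.3 ± 8.18 TPM). Cyp11a1 had 1 count, and the hydroxylases Ch25h, Cyp27a1 and Cyp7b1 had none. Of 16 PPAR targets 10 were detected (median 23.8 TPM). Among the highest by CPM were the fatty acid oxidation genes Cpt1a and Hadha (80.2 ± 13.1 TPM), and the peroxisomal enzyme Ehhadh, and the lipid carriers Fabp4 and Cd36 had 0 counts. None of 6 bile acid receptor target genes had a count, Nr0b2, Slc51a, Slc51b and Abcb11 included. Of 7 target genes of the xenobiotic receptors only Por, the reductase that serves all microsomal cytochromes P450, was detected (138 ± 4.62 TPM). Abcc2 and Cyp3a13 had 1 count each, and Cyp3a11, Cyp2b10, Cyp2c29 and Abcb1a had none.

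**Figure D3:**
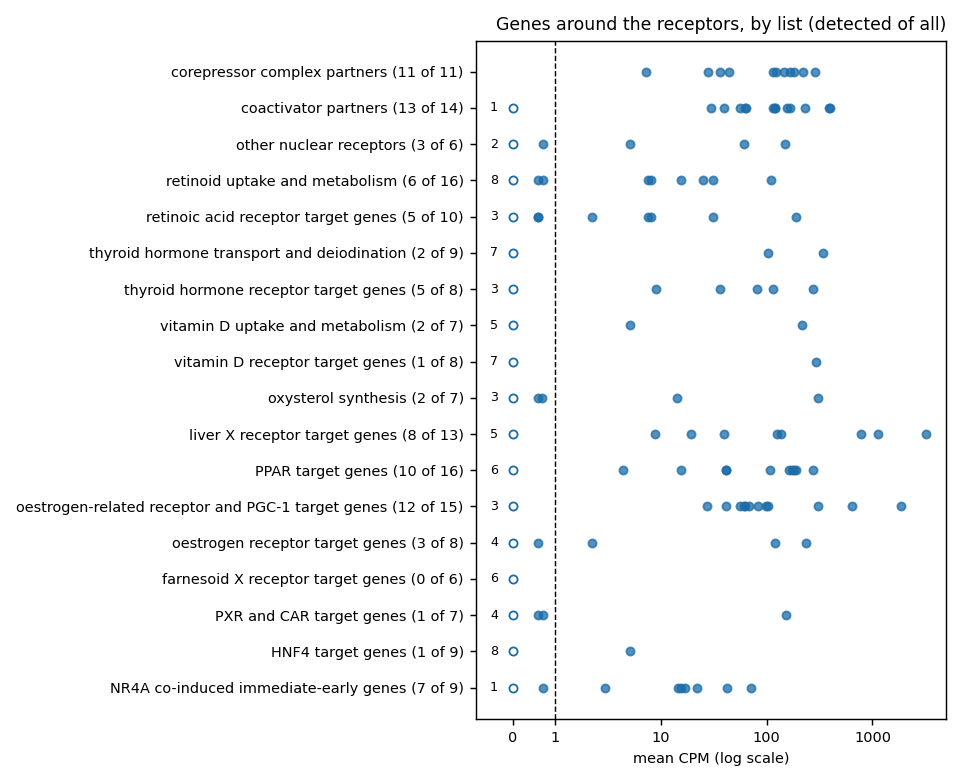
Mean CPM over 3 libraries on a log axis for the genes of 18 lists around the receptors, with 1 point per gene; an open circle at the left edge marks genes with no count, its number beside it, and the dashed line is the detection level of 1 CPM. All 11 corepressor partners lie right of the line, and all 6 bile acid receptor targets are at 0.

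Esrrb was the receptor with the highest mean. This oestrogen-related receptor binds DNA without a known hormone and is known for the self-renewal of embryonic stem cells. Esrrb (ENSMUSG00000021255, chromosome 12, 86361117 to 86521628) had 44, 57 and 53 counts, or 60.9, 72.4 and 72.9 TPM, with a mean of 68.7 ± 6.80 TPM (percentile 86.6 of protein-coding genes). It led the receptors in replicate 2 and was level with Rarg at the top in replicate 1 (both 60.9 TPM), while Rxra and Nr2f6 were above it in replicate 3. Esrra, the form tied to mitochondrial genes in muscle and other tissues, had 12, 7 and 12 counts, or 22.9, 12.3 and 22.8 TPM (19.3 ± 6.10 TPM). Esrrg had 2, 1 and 0 counts (1.31 ± 1.35 TPM, with 0.618 TPM without replicate 1 and 1.97 TPM without replicate 3). The 3 libraries of Esrrb lay above all those of both relatives. Esrrb had 3.60 times the counts of Esrra per length (2.44 to 5.49) and 52.7 times those of Esrrg (17.7 to 258), which was 113 without replicate 1 and 34.6 without replicate 3. Esrra had 14.6 times the counts of Esrrg (4.56 to 74.7), 26.9 without replicate 1, 8.96 without replicate 3 and 22.3 by longest transcript.

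Of 15 genes of the oestrogen-related receptor and PGC-1 programme 12 were detected (median 53.1 TPM), most of them mitochondrial and also expressed widely. Highest by CPM were the ATP synthase subunit Atp5b (1609 ± 41.1 TPM) and citrate synthase Cs (406 ± 10.8 TPM). The muscle genes Cox6a2, Ckmt2 and Lrrc39 had 0 counts. The hormone-binding oestrogen receptors Esr1 and Esr2 and the progesterone receptor Pgr had 0 counts in all libraries. Of 8 oestrogen receptor target genes, Pgr among them, 3 were detected. They were the protease gene Ctsd (366 ± 28.6 TPM), the stress response factor Xbp1 (137 ± 34.4 TPM) and Igfbp4. Igfbp4 had 1 count in each library (1.84 ± 0.0869 TPM), so its small SD does not show a precise level. Greb1, Tff1 and Cxcl12 had no count.

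Of the orphan receptors of the NR2 group, Nr2f6, Nr2c2 and Nr2c1 were among the higher receptors, Nr2f2 was lower, and Nr2f1, Nr2e1 and Nr2e3 were not detected. Nr2f6, a COUP family member, had 19, 23 and 28 counts, or 53.3, 59.2 and 78.1 TPM (63.5 ± 12.95 TPM). Of its exon bases 54.4% lie opposite exons of Ocel1, which had 1 count. Nr2f2 (COUP-TFII), known for veins and mesenchyme, had 22, 26 and 17 counts (20.3 ± 3.49 TPM), and Nr2f1 (COUP-TFI) had 1, 0 and 0. All libraries of Nr2f6 lay above all of Nr2f2 per length. The ratio of Nr2f6 to Nr2f2 was 3.11 (2.19 to 4.43), or 2.05 by longest transcript, and that of Nr2f2 to Nr2f1 38.4 (6.65 to 1539), or 23.0 without replicate 2. The testicular receptors Nr2c1 and Nr2c2, which can compete for the binding sites of other receptors, were both expressed. Nr2c2 had 59, 98 and 74 counts, the most of any receptor, and 41.5 ± 8.67 TPM. Nr2c1 had 24, 26 and 18 counts and 39.8 ± 6.33 TPM. The 2 genes could not be told apart per length (ratio 1.05, interval 0.796 to 1.39), but by the longest transcript Nr2c2 had 1.66 times the level of Nr2c1, with an interval that excludes 1. Of the exon bases of Nr2c2 31.2% lie opposite other genes, mainly Mrps25 with 41 counts. Nr2e1 and Nr2e3, receptors of the retina and brain, had 0 counts.

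The NR4A receptors, immediate-early genes that are induced within minutes of stimulation, were low. Nr4a1 had 2, 3 and 6 counts (8.52 ± 5.02 TPM, and 5.67 TPM without replicate 3), Nr4a2 had 2, 2 and 3 (4.68 ± 1.28 TPM) and Nr4a3 had none. The ratio of Nr4a1 to Nr4a2 was 1.82, with an interval of 0.643 to 5.53 that includes 1. By the counting interval Nr4a1 was at least 4.28-fold higher than Nr4a3 per length, and 6.26-fold when computed against 3 counts. Of 9 other immediate-early genes 7 were detected, with the highest CPM in Egr1 (57.9 ± 6.46 TPM), Jun (49.0 ± 6.86 TPM) and Junb (35.0 ± 7.50 TPM). Fos had 1, 0 and 0 counts and was not detected, and Egr2 had no count. Nr6a1, a germ cell factor, had 9, 3 and 3 counts, with replicate 1 the highest (3.80 ± 2.74 TPM, and 2.22 TPM without replicate 1). Nr5a2 had 1 count in each library (1.38 ± 0.0651 TPM) and its steroidogenic paralog Nr5a1 had 0. The retinoid-related orphan receptors Rora (1, 0 and 3 counts) and Rorb (1, 2 and 2 counts) were near the detection limit, with Rora at 0.320 TPM without replicate 3, and their ratio of 0.678 (0.135 to 3.15) changed direction without replicate 2. Rora belongs to the loop that sets the daily rhythm of clock genes, where the Rev-erb genes oppose it, and of these Nr1d2 stood at 41.4 ± 2.26 TPM and Nr1d1 at 6.17 ± 4.18 TPM. Of the other nuclear receptors outside the 48, the glucocorticoid receptor gene Nr3c1 was the highest (70.9 ± 3.55 TPM).

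The hepatocyte and proximal tubule receptors Hnf4a and Hnf4g had 0 counts, as did Nr0b1 and Nr0b2, which lack a DNA-binding domain and repress other receptors. Of 9 HNF4 target genes 8 had no count, Apob, Apoa1 and Ttr among them, and Cubn had 2, 3 and 2 counts.

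Across the 29 pairs of related genes, 23 could be compared, since in the other 6 neither gene had more than 3 counts. The counting interval of the ratio per length excluded 1 for 18 of them and included it for 5. The direction was the same in all 3 libraries for 21 of the 23. The smallest p of an exact two-sided sign-flip permutation test over 3 libraries is 0.25, and these 21 pairs reached it (0.274 after Benjamini-Hochberg adjustment over the 23 pairs), so the intervals rest on counting error alone.

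**Figure D4:**
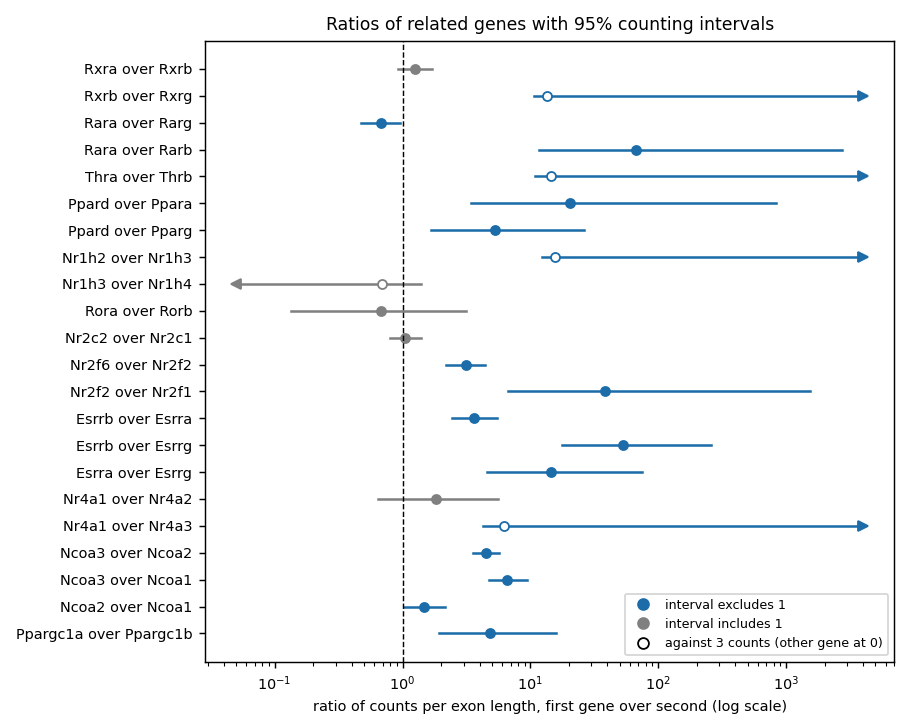
Ratios of counts per exon length on a log axis for the 22 pairs with both genes among the 48, first gene over second, over the summed counts of 3 libraries with 95% exact binomial intervals; arrows mark intervals without an upper or lower end, and open circles ratios against 3 counts where the other gene had none. Of the intervals 17 exclude the dashed line at 1, and the widest with both ends (Rara over Rarb, 11.6 to 2715) rests on a gene with 1 count.

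In the order of the 29 detected genes by TPM, most neighbours could not be separated. That order came from the same counts as the ratios, and the intervals were not adjusted for the number of neighbours. Of 28 neighbouring pairs 3 had an interval of the ratio that excluded 1, namely Ncor1 over Ncoa3 (1.60, interval 1.38 to 1.86), Ncoa3 over Esrrb (1.24, 1.01 to 1.52) and Rara over Nr2f2 (1.70, 1.17 to 2.47). By the longest transcript Ncoa3 was below Esrrb, at 69.6 and 75.2 TPM, and Rara stood at 34.6 TPM beside 32.3 TPM for Nr2f2. In summed counts, not divided by length, Rara had 56 and Nr2f2 65. From Esrrb at 68.7 TPM to Rara at 34.4 TPM no step between 2 neighbours was resolved, and likewise from Nr2f2 at 20.3 TPM down to Rora at 0.850 TPM.

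None of the 29 detected genes was called as different between the libraries after adjustment. Chi-square tests of the 3 counts of a gene against library size, with Benjamini-Hochberg adjustment, called 5 of 12473 detected genes (0.0401%) and 0 of these 29. At an unadjusted p under 0.05 there were 2 of the 29, against 4.89% of all detected genes. They were Rxrb (p = 0.0158, highest in replicate 3) and Nr2c2 (p = 0.0481, highest in replicate 2), each with an adjusted chi-square p of 0.902. Rxra had an unadjusted chi-square p of 0.0533. An exact multinomial test also called 0 of the 29 after adjustment. With summed counts from 2 (Vdr) to 645 (Ncor1) and adjustment over 12473 genes, a gene that was not called may still differ.

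The promoter windows of the genes differed widely in CpG dinucleotides, which are dense at the promoters of many broadly expressed genes. Windows were found for 42 of the 48 genes, and several windows of a gene were averaged. The 25 detected genes had a median of 19.0 CpG per 300 bases (range 2 to 53) and the 17 others a median of 11.0 (range 2 to 30), so the ranges overlapped. Over all protein-coding genes with a window, detected genes had a median of 21.5 and those below detection 4.0. At least 20 CpG were found in 11 of the 25 and 3 of the 17, against 57.8% of detected and 12.8% of undetected protein-coding genes. No test was made, since genes are not replicates. The range is shown by Nr2f6, detected and the richest with 53 CpG (chr8:71381903-71382202, minus strand), and Nr1i2, without a count and with 2 CpG (chr16:38294775-38295074, minus strand), with each CpG in capitals.
Nr2f6: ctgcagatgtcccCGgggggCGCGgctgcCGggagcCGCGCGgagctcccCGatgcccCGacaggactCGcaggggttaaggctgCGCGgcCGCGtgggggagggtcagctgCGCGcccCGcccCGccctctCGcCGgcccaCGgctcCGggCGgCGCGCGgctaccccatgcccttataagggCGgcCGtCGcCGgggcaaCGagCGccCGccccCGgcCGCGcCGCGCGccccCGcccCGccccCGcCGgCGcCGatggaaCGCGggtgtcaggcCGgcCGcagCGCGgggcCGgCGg
Nr1i2: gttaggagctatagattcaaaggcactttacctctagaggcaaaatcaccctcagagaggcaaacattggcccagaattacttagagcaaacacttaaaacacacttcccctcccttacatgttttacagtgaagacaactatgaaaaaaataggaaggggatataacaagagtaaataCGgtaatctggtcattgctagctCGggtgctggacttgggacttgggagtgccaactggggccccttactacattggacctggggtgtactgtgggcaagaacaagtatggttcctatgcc

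CpG density in these windows did not follow the level in every gene, and which start of a gene the cells used was not tested. Nr2f2 had 2 CpG at 20.3 TPM and Esrrb an average of 7 over its windows at 68.7 TPM, whereas Nr4a3 had 26 CpG with 0 counts. The half-site AGGTCA, read by many nuclear receptors, was found on either strand in 11 of the 64 windows of the 48 genes (17.2%), against 14.4% of 20145 windows of protein-coding genes. The extended form AAGGTCA, every match of which also holds AGGTCA, was found in 3 of the 64 (4.69%), against 3.97%. A match or its absence describes only the letters of these windows.

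**Figure D5:**
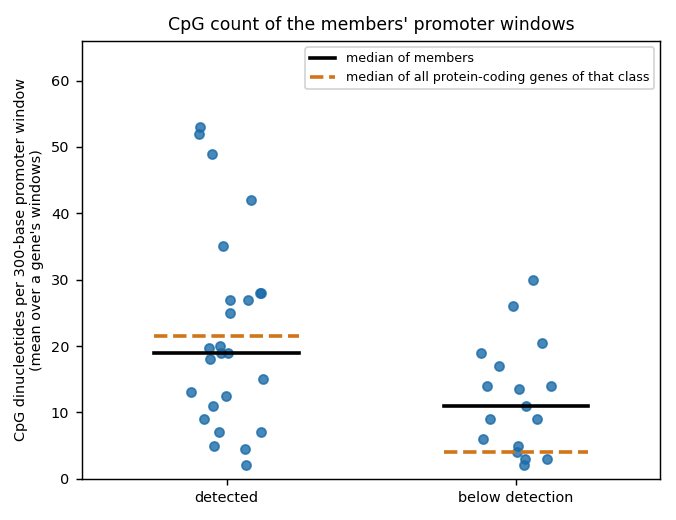
CpG dinucleotides per 300-base promoter window, averaged over a gene's windows, for the 25 detected and the 17 other genes with a window (points, spread sideways for sight only), with the median of each group in black and the median of all protein-coding genes of that class dashed. The group medians are 19.0 and 11.0, and the dashed medians 21.5 and 4.0.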

How the data were processed

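The authors deposited raw counts per Ensembl gene, as whole numbers and without normalisation, for 3 total RNA libraries from which ribosomal RNA had been removed. The submitters' processing notes name STAR, HTSeq and the build mm10. Their versions, the strand setting and how reads with several matches were counted are not given. GENCODE M21 supplied gene names, exon lengths and positions (55227 of 55487 identifiers matched). The members, lists and pairs were chosen with earlier results of these data known.

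CPM used library sizes with TMM scaling by edgeR 4.0.16 and R 4.3.3 (factors 0.992, 1.00 and 1.01). TPM used the summed length of all exons of a gene. Pairs were compared as ratios of summed counts per length with 95% exact (Clopper-Pearson) binomial intervals and with a sign-flip test of log2 ratios with 0.5 counts added. Intervals and limits cover counting error only, and reads without molecular identifiers are not independent molecules. A ratio against 0 counts was computed against 3 counts summed over all libraries. The chi-square test ran on all 12473 detected genes and was tested on simulated data. Computations ran in Python with scipy 1.17.1, numpy 2.4.6 and pandas 2.3.3, and plots with matplotlib 3.10.9. Promoter windows came from RefSeq (GRCm38.p6).

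Of the exons of the 48 genes, those of 4 (Nr1i3, Nr2f6, Rarb and Nr2c2) lie over 10% opposite another gene. These 4 share more than 10% of their 50-base stretches with transcripts of any other gene, read on either strand. The others share at most 7.35%. Rarb lies 38.4% opposite Top2b (443 counts) and another gene. Without a stated strand setting, reads of such partners cannot be told apart.

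Named were all 48 genes, the pair genes, and of each of 22 lists the 3 highest by CPM with up to 4 members without counts. Cyp26a1, Aldh1a2, Lcorl, Abca1, Fos and the overlap partners were picked with their values known, as were the printed promoters. Some results of these genes and lists are not reported here. The protein features planned at the start were not analysed here. With 1 group in the labels, no conditions were compared. Tried as alternatives were library totals or DESeq2 1.42.0 size factors, other detection levels, the longest transcript as length, no length, other filters, an exact multinomial test for up to 300 counts, other pseudocounts and leaving out each replicate.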

Additional observations from a re-analysis of the deposited data

How the results depend on the processing

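No paired analysis was possible because the labels give 1 group. The number of detected members was 21 to 32 under the other detection levels, and 30 to 31 with 1 replicate left out, where 1 count can reach 1 CPM. The median over all 48 genes was 2.95 CPM in place of 2.02 TPM, and 1.44 to 1.99 TPM with a replicate left out. The chi-square test called 1 to 3 of all genes with a replicate left out, and 0 of the members under every filter, scaling and test tried. Between 16 and 19 of the 23 pairs had an interval that excludes 1 under the lengths tried and with a replicate left out. The direction turned for Rxra over Rxrb by longest transcript (0.926), for Rora over Rorb without a replicate (0.282 to 1.13) and for Nr2c2 over Nr2c1 without a replicate (0.969 to 1.21), and the cause was not tested. Not divided by length, Rxra had 1.73 times and Nr2c2 3.40 times the counts of its relative, both with intervals that exclude 1, and Nr2f6 had 1.08 times those of Nr2f2, with an interval that includes it. A pseudocount of 1 or 0.1 turned no pair. Ratios to Rarb, Ppara or Nr2f1 have no value without the library that holds their only count. TPM by longest transcript moved by more than the spread between libraries for 10 of the 29 detected members. Depth limits all genes with few counts.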
